A study of Mus musculus with 2 samples.

Results

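The matrix metalloproteinases and their inhibitors were followed as 10 genes (Mmp2, Mmp8, Mmp9, Mmp12, Mmp13, Mmp14, Timp1, Timp2, Timp3 and Loxl2), found by exact match of the gene symbol among the 32285 genes counted in each library. Each symbol matched 1 gene, and all 10 had counts in both libraries. Single-cell RNA-Seq was run on liver cells of male C57BL/6 mice fed a Western-type diet (WD) for 16 weeks. The sample titles name the diet HFD, whereas the treatment labels and the design text name it WD. The WT library was made from liver of control mice. The N-LKO library was made from liver plus tumor of mice in which albumin-Cre deletes the loxP-flanked NgBR gene (Nus1) in hepatocytes, so that the other liver cells kept the gene. Hepatocytes and nonparenchymal cells were dissociated with collagenase and recombined before loading, with tumor cells added in N-LKO, so cell numbers reflect that mixing as well as the tissue. There was 1 library per genotype, and the number of animals behind each was not given in the sources used here. Genotype, tumor tissue and library therefore cannot be told apart, there is no replicate check, and no p-value is given.

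Matrix metalloproteinases (MMPs) are zinc-dependent endopeptidases that cut collagens, elastin, proteoglycans and many secreted or surface proteins. Most are secreted as inactive proenzymes, and tissue inhibitors of metalloproteinases (TIMPs) block the active enzyme. In injured liver, stellate cells are a known source of matrix and of TIMPs, macrophages of elastase and interstitial collagenase, and neutrophils of the gelatinase and collagenase stored in their granules. Lysyl oxidases act on the other side of matrix turnover, by cross-linking collagen and elastin.

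After filtering and removal of predicted doublets, 18435 WT cells and 19850 N-LKO cells were kept, with medians of 1400 and 1454 unique molecular identifiers (UMIs, each standing for 1 captured transcript). The libraries held 85522287 and 87575064 UMIs in all. They shared 2499 barcode sequences, of which 122 belonged to kept cells of both. The 10 genes and the related genes named below were left out of the clustering, and 14 cell classes were then named from marker lists, each with the ending "-like". Kupffer-like cells numbered 1681 in WT and 3555 in N-LKO, monocyte/macrophage-like cells 751 and 1752, stellate-like cells 903 and 621, endothelial-like cells 1878 and 2393, hepatocyte-like cells 9964 and 2111, T/NK-like cells 1177 and 1946, and neutrophil-like cells 102 and 718. In addition, 2 clusters with markers of more than 1 class (842 and 2012 cells) and 1 cluster without a name (1 and 2044 cells) were kept out of the classes. The hepatocyte-like class lay in different clusters in the libraries: 8225 of its WT cells were in the largest cluster, which held 74 N-LKO cells, whereas 2012 of its N-LKO cells were in another, which held 100 WT cells. Hepatocyte-like values therefore compare different clusters of hepatocytes. Nus1, the targeted gene, had 1229 UMIs in WT and 185 UMIs in N-LKO hepatocyte-like cells, or 73.1 and 39.7 UMIs per 1e6 UMIs of the class (CPM), a log2 ratio of -0.88 (95% counting interval -1.11 to -0.66), whereas in Kupffer-like, endothelial-like and stellate-like cells the interval included 0. In T/NK-like cells, with 115 and 162 UMIs, the log2 ratio was -0.44 (-0.80 to -0.09). All intervals are exact and cover counting error only, not the spread between animals.

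Transcripts of other cell types were present in every class. The 10 hepatocyte markers made up 15186 CPM of WT and 8438 CPM of N-LKO Kupffer-like cells, 21149 and 12147 CPM of endothelial-like cells, and 11241 and 9819.5 CPM of stellate-like cells. In most classes the class's own markers were also lower in N-LKO: the 8 Kupffer markers summed to 8279 CPM (WT) and 5365 CPM (N-LKO) of Kupffer-like cells, the 10 endothelial markers to 7999 and 5293 CPM, the 10 stellate markers to 10205 and 5735 CPM, and the 8 neutrophil markers to 16174 and 9937 CPM in their respective classes. Own markers were higher in N-LKO in monocyte/macrophage-like (3673 and 4060 CPM), hepatocyte-like (53855 and 55209 CPM) and plasma-like cells (22260 and 23080 CPM). For this reason each member was set beside 2 reference levels in every class. The free RNA level is what barcodes below 500 UMIs would bring, scaled to the hepatocyte markers in that class. For hepatocyte-like cells it was scaled to the erythroid markers instead. The source level is what the class would hold if its markers of the member's main class carried that member in proportion.

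The MMP genes lie in several places in the mouse genome. In GRCm38 (GENCODE M21), Mmp13 (9:7272514-7283331), Mmp12 (9:7344381-7369499) and Mmp8 (9:7558456-7568485) lie on the plus strand of chromosome 9, in a stretch of 295972 bp whose 6 protein-coding genes are all MMPs. Mmp2 (8:92827291-92853420), Mmp9 (2:164940780-164955850), Mmp14 (14:54431612-54445364), Timp1 (X:20870166-20874735), Timp3 (10:86300372-86349506) and Loxl2 (14:69609068-69695834) are also on the plus strand, and Timp2 (11:118301069-118355740) is on the minus strand. Exons of Timp3 and Timp1 overlap Syn3 and Syn1 on the opposite strand. Those genes had 408 and 741 UMIs (Syn3) and 137 and 263 UMIs (Syn1) in kept WT and N-LKO cells, so part of the Timp1 and Timp3 reads could not be told apart from them if strand was not used. Mmp12 overlaps Mmp1b, which had 0 UMIs in both libraries, Timp2 overlaps Cep295nl, with 2 UMIs in each library, and Loxl2 overlaps Gm27177, with 0 UMIs in both.

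Promoter sequences were available in RefSeq (GRCm38.p6) for 7 of the 10 genes. Mmp2, Mmp9 and Loxl2 had no entry. The 120 bases before the transcription start are printed for the macrophage MMPs, Mmp12 with both its starts and Mmp13, and for Mmp14 and the inhibitor gene Timp1, to show how differently these promoters are built. RefSeq starts can differ by some bases from the GENCODE starts above. Capitals mark matches to 4 motifs sought on both strands in the 250 bases before each start, namely AP-1 (TGANTCA), the TATA box (TATAAA), the GC box (GGGCGG) and PU.1 (GAGGAAG, or CTTCCTC on the other strand).
Mmp12, first start, 9:7344277-7344396 (+): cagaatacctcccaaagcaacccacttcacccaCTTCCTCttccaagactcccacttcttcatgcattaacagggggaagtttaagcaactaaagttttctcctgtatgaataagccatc
Mmp12, second start, 9:7347254-7347373 (+): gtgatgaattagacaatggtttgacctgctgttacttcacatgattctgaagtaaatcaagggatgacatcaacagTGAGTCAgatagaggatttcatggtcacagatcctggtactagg
Mmp13, 9:7272394-7272513 (+): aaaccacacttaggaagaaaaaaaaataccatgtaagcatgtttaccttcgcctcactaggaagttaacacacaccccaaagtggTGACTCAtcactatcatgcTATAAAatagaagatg
Mmp14, 14:54431478-54431597 (+): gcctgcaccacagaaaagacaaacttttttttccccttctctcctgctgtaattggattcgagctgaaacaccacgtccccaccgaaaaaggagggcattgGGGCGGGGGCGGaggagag
Timp1, X:20870046-20870165 (+): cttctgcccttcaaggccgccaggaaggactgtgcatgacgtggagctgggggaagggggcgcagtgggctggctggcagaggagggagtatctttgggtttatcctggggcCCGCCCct

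The AP-1 letters began 44 bases before the second Mmp12 start and 35 bases before the Mmp13 start, where TATAAA followed 16 bases before the start. The PU.1 letters began 87 bases before the first Mmp12 start and 220 bases before the Mmp8 start, which is not printed here. GC boxes were found in Mmp14 at 19 and 13 bases before the start, without overlap, and in Timp1 at 8, Timp3 at 15 and Timp2 at 37 bases. Among 32851 RefSeq promoters, 6.75% held the AP-1 letters in the same 250 bases, 12.4% TATAAA, 32.7% the GC box and 10.6% the PU.1 letters. The GC content of the 250 bases was 40.0% and 39.6% for the Mmp12 starts and 40.4% for Mmp13, against 55.2% for Mmp14, 54.4% for Timp1, 68.0% for Timp2 and 65.6% for Timp3. These matches describe the letters only.

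Over all kept cells, all 10 genes stood higher in N-LKO, with every counting interval of the ratio above 0 on the log2 scale. The share of all genes with such an interval was not counted. Timp3 (log2 ratio 0.16) was below the median of all genes tested (0.34), and Loxl2 (0.35) was about at it. Hepatocyte-like cells made up 54.0% of kept WT and 10.6% of kept N-LKO cells. With cells limited to 10% mitochondrial UMIs, 5 of the 10 genes (Mmp2, Mmp13, Timp1, Timp3 and Loxl2) stood lower instead, at log2 ratios from -1.02 to -0.13. Mmp12 went from 1580 UMIs (54.3 CPM) in WT to 10003 UMIs (301.3 CPM) in N-LKO, a 5.54-fold difference. Mmp8 had 32 and 347 UMIs (9.36-fold), Mmp9 48 and 145 UMIs (2.63-fold) and Timp1 34 and 93 UMIs (2.37-fold). The other members differed by 1.12-fold to 1.92-fold. A gene is called higher or lower here when it had at least 20 UMIs over both libraries, a ratio of at least 2-fold and an interval excluding 1. By this rule 4 of the 10 members (Mmp8, Mmp9, Mmp12 and Timp1) were called higher and 0 lower, although Timp1 had a log2 ratio of -0.47 under the 10% limit, beside 15.3% of all 17057 genes tested called higher and 5.11% called lower. The median log2 ratio was 0.91 over the members and 0.34 over all genes tested. Since cell classes differed in number between the libraries, each member was then followed class by class.

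**Figure D1:**
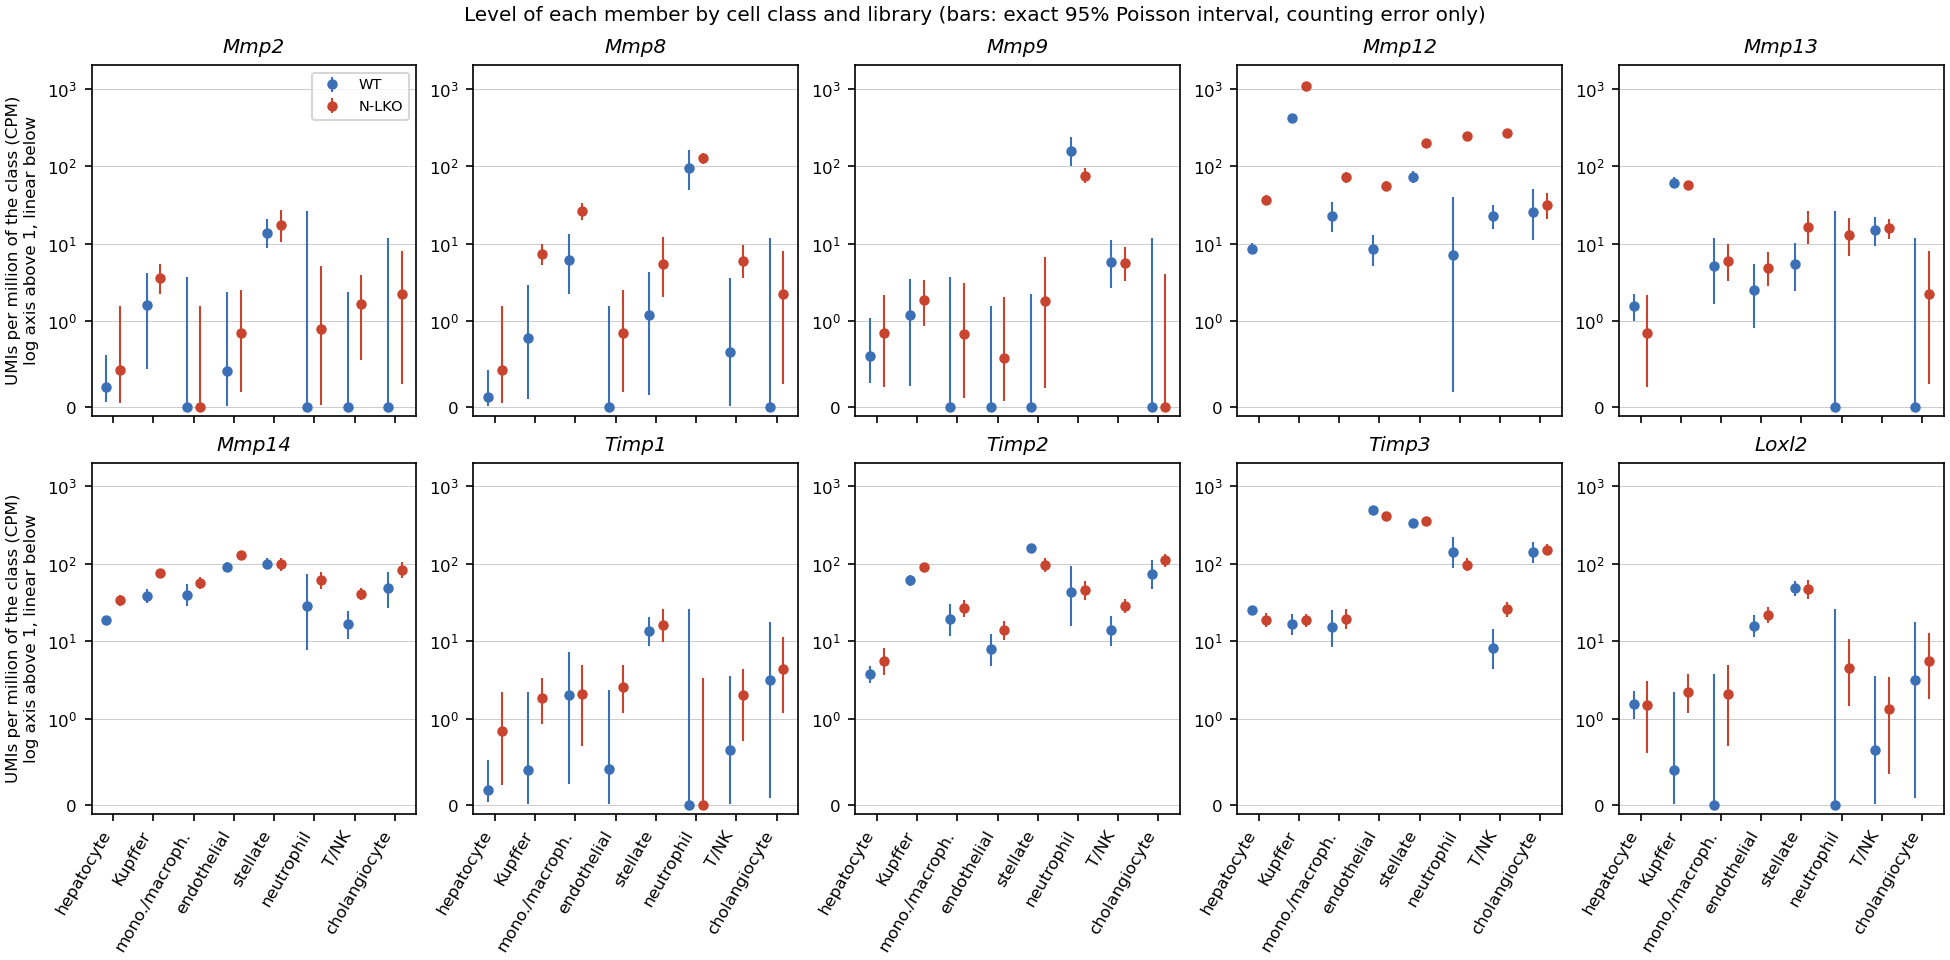
Level of each of the 10 genes in CPM (vertical axis, log above 1 and linear below) in 8 cell classes (horizontal axis) of the WT and N-LKO libraries, 1 point per class and library with the exact 95% Poisson interval. Mmp12 and Mmp13 were highest in Kupffer-like cells, Mmp8 and Mmp9 in neutrophil-like cells, and Timp3 in endothelial-like cells, among the classes drawn.

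Mmp12 is the macrophage metalloelastase. Kupffer-like cells held 65.9% of its UMIs in WT and 62.0% in N-LKO. In these cells it had 1042 UMIs in WT, or 420.3 CPM (395 to 447), and 6200 UMIs in N-LKO, or 1065 CPM (1038 to 1092). The N-LKO level was 2.53-fold higher (log2 ratio 1.34, 1.25 to 1.44). The free RNA level of Mmp12 in Kupffer-like cells was 4.13 CPM (WT) and 29.1 CPM (N-LKO), far below both values. With each cell thinned to 1000 UMIs, 12.1% of WT (10.6 to 13.7) and 35.4% of N-LKO Kupffer-like cells (33.8 to 37.0) held a Mmp12 UMI. Unthinned, the shares were 13.8% and 42.0%. In hepatocyte-like cells, which should lack the gene, the thinned shares were 0.933% and 3.36%, at median depths of 1519.5 and 1944 UMIs against 1382 and 1496 UMIs in Kupffer-like cells. The level per positive cell was nearly the same in the libraries: the mean was 4.49 UMIs in 232 WT cells and 4.15 UMIs in 1493 N-LKO cells, and the median was 3 in each. Cells with 5 or more Mmp12 UMIs made up 4.70% of WT and 12.9% of N-LKO Kupffer-like cells and held 70.9% and 68.1% of the Mmp12 UMIs of the class. Thus the libraries differed more in how many Kupffer-like cells held Mmp12 than in how much a positive cell held.

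The Kupffer-like class was then split by clustering the same cells at a finer resolution of 1.0. One cluster, led by Chst11, Mmp12, Atp6v0d2, Gpnmb and Cd63, held 13.6% of the WT Kupffer-like cells (228 cells) and 92.5% of the N-LKO ones (3287 cells). A second, led by the scavenger receptor genes Cd163 and Marco, by Timd4 and by hepatocyte transcripts such as Sult2a8 and Car3, held 76.9% of the WT cells (1293 cells) and 1.38% of the N-LKO cells (49 cells). Another cluster was led by the cell division genes Top2a, Hist1h1b, Pclaf and Mki67 and held 110 WT and 189 N-LKO cells. The first 2 clusters were each mostly of 1 library and may be that library rather than a cell type. At this resolution the first cluster and that led by Top2a scored highest on the monocyte and macrophage markers, so that nearly all N-LKO Kupffer-like cells took that name and only the second cluster kept the Kupffer name. In WT alone, Mmp12 stood at 1882 CPM in the first cluster and 139 CPM in the second, a 13.5-fold difference. Mmp13 had 74 and 69 UMIs, a CPM 4.99-fold higher in the first, and Mmp14 stood at 61.5 and 28.6 CPM (2.17-fold), whereas Timp2 was at 53.8 and 67.2 CPM, an interval including no difference. In the same WT cells, Gpnmb was at 1023 and 61.7 CPM and Trem2, a lipid-sensing receptor, at 289.7 and 71.6 CPM, whereas the Kupffer markers Clec4f (533 and 1670 CPM) and Timd4 (43.6 and 219 CPM) were lower in the first cluster.

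The direction of Mmp12 between genotypes differed among these clusters. In the first, Mmp12 stood at 1882 CPM (WT) and 1121 CPM (N-LKO, log2 ratio -0.75, -0.86 to -0.63), and Mmp13 was at 189.7 and 60.1 CPM (log2 ratio -1.67, -2.03 to -1.27). Timp2 was at 53.8 and 94.97 CPM (log2 ratio 0.79, 0.19 to 1.52), and for Mmp14 the interval included 0. In the cluster led by Top2a Mmp12 was higher in N-LKO, with 34 UMIs in WT (169.9 CPM) and 222 UMIs in N-LKO (533 CPM, log2 ratio 1.63, 1.13 to 2.22), and so was Timp2, with 5 and 31 UMIs (log2 ratio 1.46, 0.20 to 3.30). In the second, where N-LKO had 5 Mmp12 UMIs, the log2 ratio was -0.89 (-2.66 to 0.22). When Kupffer-like and monocyte/macrophage-like cells were taken as 1 macrophage class, Mmp12 stood at 307.4 CPM (WT) and 779 CPM (N-LKO, log2 ratio 1.34, 1.25 to 1.44), and the log2 ratio was 1.33 with the finer clustering.

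**Figure D2:**
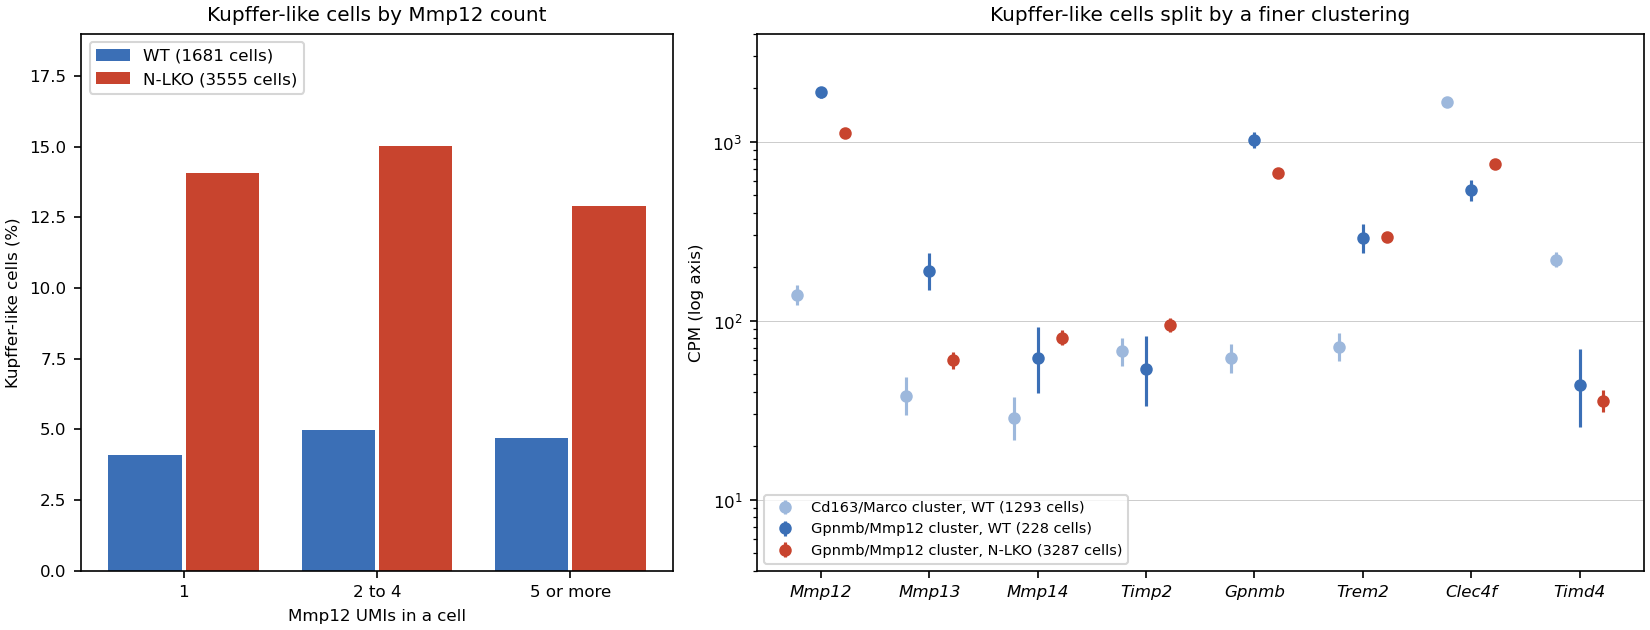
Left, percent of the WT and N-LKO Kupffer-like cells that held 1, 2 to 4, or 5 or more Mmp12 UMIs. Right, level in CPM (log axis, bars are exact 95% Poisson intervals) of members and macrophage markers in the finer clusters, where within the Mmp12-rich cluster the WT level of Mmp12 (1882 CPM) lay above that of N-LKO (1121 CPM).

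In the classes given next Mmp12 was much lower than in Kupffer-like cells of the same library, and its difference ran the same way. In cholangiocyte-like (log2 ratio 0.21, -0.90 to 1.61) and plasma-like cells (1.51, -0.26 to 4.94) the interval included 0. Monocyte/macrophage-like cells had 22 WT UMIs (22.4 CPM) and 168 N-LKO UMIs (71.4 CPM, log2 ratio 1.65, 1.03 to 2.39), endothelial-like cells 20 UMIs (8.40 CPM) and 193 UMIs (55.4 CPM, log2 ratio 2.69, 2.05 to 3.46), and hepatocyte-like cells 145 UMIs (8.62 CPM) and 170 UMIs (36.5 CPM, log2 ratio 2.08, 1.75 to 2.41). Stellate-like cells had 122 UMIs (73.1 CPM) and 216 UMIs (198.2 CPM, log2 ratio 1.44, 1.11 to 1.77), and T/NK-like cells 35 UMIs (22.5 CPM) and 792 UMIs (265.6 CPM, log2 ratio 3.54, 3.07 to 4.10). Neutrophil-like cells had 1 UMI in WT and 266 UMIs in N-LKO (242.0 CPM, log2 ratio 4.49, 2.58 to 10.4). Lymphocytes, endothelial cells and hepatocytes are not known as sources of metalloelastase.

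Kupffer markers were present in all of these classes. The 8 Kupffer markers summed to 1057 CPM (WT) and 1497 CPM (N-LKO) of T/NK-like cells, to 1445 and 1475 CPM in neutrophil-like cells, to 2854 and 1937 CPM in stellate-like cells and to 405 and 546 CPM in endothelial-like cells. At the Mmp12 content of N-LKO Kupffer-like cells, those markers would bring 297 CPM of Mmp12 to T/NK-like, 293 CPM to neutrophil-like, 384 CPM to stellate-like, 108 CPM to endothelial-like, 85.5 CPM to monocyte/macrophage-like and 92.1 CPM to hepatocyte-like cells. All 6 measured N-LKO levels were below these source levels. Mmp12 UMIs per Kupffer marker UMI in WT were 0.051 in Kupffer-like cells and 0.058 in monocyte/macrophage-like cells. In WT they were 0.021 in T/NK-like, 0.0050 in neutrophil-like, 0.026 in stellate-like, 0.021 in endothelial-like and 0.016 in hepatocyte-like cells. The N-LKO values were 0.198, 0.166, 0.177, 0.164, 0.102, 0.101 and 0.079 in the same order, so the 2 libraries differed in this reference. The free RNA levels in the same N-LKO classes, scaled to erythroid markers for hepatocyte-like cells, ran from 17.5 to 52.2 CPM, below the measured values in each. Among the 935 N-LKO T/NK-like cells without a Kupffer marker UMI, Mmp12 was at 98.7 CPM against 11.5 CPM in the 764 such WT cells, and among stellate-like cells without one it was at 93.6 CPM (221 cells) against 8.85 CPM (285 cells). Of the cells kept out of the classes, the mixed clusters held 156 Mmp12 UMIs in WT (114.7 CPM) and 1294 in N-LKO (393 CPM), and the unnamed cluster, nearly all from N-LKO, held 173 (43.8 CPM). The source of Mmp12 in these classes, whether the cells themselves, joined Kupffer cells or free RNA, was not tested.

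**Figure D3:**
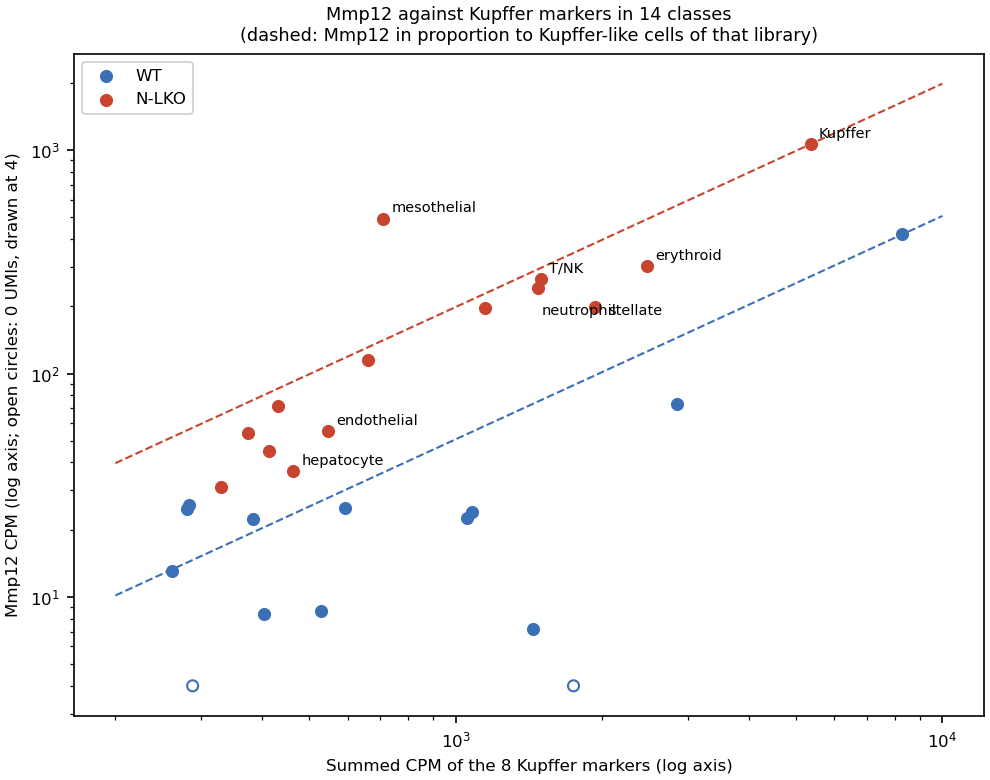
Mmp12 (CPM) against the summed CPM of 8 Kupffer markers (log axes) in the 14 named classes of each library, 1 point per class and library. The dashed lines show Mmp12 in proportion to the Kupffer markers at the ratio of that library's Kupffer-like cells, and N-LKO mesothelial-like cells (493 CPM) and WT cholangiocyte-like (25.8 CPM), conventional dendritic-like (24.8 CPM) and monocyte/macrophage-like cells (22.4 CPM) lay above theirs.

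The collagenases split between macrophages and neutrophils. Mmp13, the interstitial collagenase of rodents, was highest in Kupffer-like cells, with 152 UMIs in WT (61.3 CPM) and 328 UMIs in N-LKO (56.3 CPM). The levels did not differ beyond counting error (log2 ratio -0.12, -0.40 to 0.16). Thinned shares were 3.75% and 4.14% of Kupffer-like cells, and 5.23% and 5.88% unthinned, against 0.191% and 0.142% of hepatocyte-like cells. In stellate-like cells Mmp13 had 9 UMIs in WT (5.39 CPM) and 18 UMIs in N-LKO (16.5 CPM, log2 ratio 1.58, 0.39 to 2.95), beside a Kupffer source level of 21.1 and 20.3 CPM. Stellate-like cells without a Kupffer marker UMI held 3 Mmp13 UMIs in WT (285 cells) and 0 in N-LKO (221 cells), too few to tell whether the difference was present there. T/NK-like cells had 14.8 and 15.8 CPM, with no difference beyond counting error.

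Mmp8, the collagenase stored in neutrophil granules, was highest in neutrophil-like cells, with 13 UMIs in WT (93.5 CPM, 49.8 to 160) and 138 UMIs in N-LKO (125.6 CPM, 105.5 to 148). With 102 WT cells in the class the ratio could not be told from 1 (log2 ratio 0.38, -0.40 to 1.37). The class held 13 of the 32 Mmp8 UMIs of all kept WT cells and 138 of the 347 of N-LKO. Mmp8 was also found in several other classes. In N-LKO it stood at 43.2 CPM in erythroid-like cells (8 UMIs) and 16.2 CPM in B-like cells (19 UMIs). Plasmacytoid dendritic-like cells had 9.16 CPM (7 UMIs), conventional dendritic-like cells 8.70 CPM (8 UMIs) and T/NK-like cells 6.04 CPM (18 UMIs). Monocyte/macrophage-like cells had 6 WT UMIs (6.11 CPM) and 62 N-LKO UMIs (26.4 CPM, log2 ratio 2.01, 0.91 to 3.61), and Kupffer-like cells had 2 and 43 UMIs (0.807 and 7.38 CPM, log2 ratio 2.89, 1.25 to 6.29). The neutrophil source level in N-LKO was 1.93 CPM and 1.16 CPM in these classes and the free RNA level was 1.28 and 0.873 CPM, so the measured Mmp8 was above both. The 8 neutrophil markers summed to 59.1 CPM (WT) and 152.7 CPM (N-LKO) of monocyte/macrophage-like cells. In N-LKO they summed to 1113 CPM of erythroid-like and 289.7 CPM of B-like cells. The source of Mmp8 outside neutrophil-like cells was not tested.

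Mmp9, the gelatinase of neutrophil granules, went the other way in neutrophil-like cells. It had 22 UMIs in WT (158 CPM, 99.1 to 239) and 83 UMIs in N-LKO (75.5 CPM, 60.2 to 93.6), a log2 ratio of -1.09 (-1.76 to -0.32). The thinned share of cells with a Mmp9 UMI was 15.7% (9.24 to 24.2) in WT and 6.41% (4.73 to 8.45) in N-LKO, the unthinned shares were 15.7% and 9.75%, and hepatocyte-like cells stood at 0.0803% and 0.0474%. Median depth was 1226 UMIs in WT and 1354 UMIs in N-LKO neutrophil-like cells. The neutrophil markers were lower beside it, at the 16174 and 9937 CPM given above, and their part in the lower Mmp9 was not tested. Outside this class Mmp9 was sparse, with 3 and 11 UMIs in Kupffer-like, 0 and 2 in stellate-like, 0 and 2 in endothelial-like, and 9 and 17 in T/NK-like cells. Of 6 members tested in neutrophil-like cells, 1 was called higher (Mmp12) and 1 lower (Mmp9), beside 4.02% of all 7485 genes called higher and 6.08% called lower.

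The cell-surface protease Mmp14, which activates pro-MMP2, was spread over several classes. Endothelial-like cells had 219 UMIs in WT (92.0 CPM) and 457 UMIs in N-LKO (131 CPM, log2 ratio 0.51, 0.28 to 0.75), whereas stellate-like cells had 169 UMIs (101 CPM) and 109 UMIs (100.04 CPM), a log2 ratio of -0.01 (-0.38 to 0.34). In Kupffer-like cells the N-LKO level was 2.004-fold the WT level, with 95 UMIs in WT (38.3 CPM) and 449 UMIs in N-LKO (77.1 CPM, log2 ratio 1.00, 0.69 to 1.34). Hepatocyte-like cells had 18.97 and 34.1 CPM (log2 ratio 0.85, 0.56 to 1.13), monocyte/macrophage-like cells 39.7 and 57.0 CPM (log2 ratio 0.51, an interval touching 0) and T/NK-like cells 16.7 and 41.2 CPM (log2 ratio 1.28, 0.69 to 1.97). Its order over classes in N-LKO began with endothelial-like and stellate-like cells, whose intervals overlapped.

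Mmp2, the gelatinase that Mmp14 activates, was scarce. Stellate-like cells held 23 UMIs in WT (13.8 CPM, 8.73 to 20.7) and 19 UMIs in N-LKO (17.4 CPM, 10.5 to 27.2), which did not differ beyond counting error (log2 ratio 0.35, -0.62 to 1.28). Kupffer-like cells had 4 and 21 UMIs (log2 ratio 1.02, -0.41 to 3.16), and the monocyte/macrophage-like, endothelial-like, hepatocyte-like, neutrophil-like and T/NK-like classes had at most 5 in either library. At this depth a difference inside these intervals was not detectable.

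The 3 TIMP genes differed in where they were found and in their direction. Timp1, the inhibitor known to rise in activated stellate cells, had only 23 UMIs in WT (13.8 CPM) and 18 UMIs in N-LKO stellate-like cells (16.5 CPM, log2 ratio 0.27, -0.71 to 1.22). Kupffer-like cells had 1 and 11 Timp1 UMIs, endothelial-like cells 1 and 9, and hepatocyte-like cells 3 and 4. Timp1 was therefore called higher over all kept cells but in none of the classes, where at most 41 UMIs over both libraries were counted.

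Timp2, which inhibits MMPs and also takes part in the activation of pro-MMP2 by Mmp14, was lower in stellate-like cells of N-LKO. It had 270 UMIs in WT (162 CPM, 143 to 182) and 106 UMIs in N-LKO (97.3 CPM, 79.7 to 118), a log2 ratio of -0.73 (-1.07 to -0.40), which is under the 2-fold limit of a call. The thinned shares of positive stellate-like cells were 15.1% and 8.37%, and 24.9% and 14.3% unthinned, against 0.452% and 0.568% of hepatocyte-like cells, with median depths of 1688 and 1573 UMIs. Stellate markers were also lower in the same cells, at 10205 and 5735 CPM, and their part in the lower Timp2 was not tested. In Kupffer-like cells Timp2 ran the opposite way, with 154 UMIs in WT (62.1 CPM) and 539 UMIs in N-LKO (92.6 CPM, log2 ratio 0.57, 0.31 to 0.84). That direction depended on which cells were counted as Kupffer-like, since the log2 ratio was -0.98 at resolution 1.0, with 2 N-LKO UMIs, and -0.10 with the mixed clusters included. Endothelial-like cells had 7.98 and 14.1 CPM (log2 ratio 0.79, 0.03 to 1.67), and T/NK-like cells had 14.1 and 28.8 CPM (log2 ratio 1.01, 0.34 to 1.78). The T/NK-like value turned to -0.10 with a minimum of 500 UMIs per cell, -0.29 at resolution 1.0 and -0.28 with the members used in clustering.

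Timp3, the inhibitor that binds to the matrix itself, was highest in endothelial-like cells, with 1184 UMIs in WT (497 CPM, 470 to 527) and 1426 UMIs in N-LKO (409 CPM, 388 to 431). The log2 ratio was -0.28 (-0.39 to -0.17), a small difference beside endothelial markers of 7999 and 5293 CPM. The thinned share of endothelial-like cells with a Timp3 UMI was 36.5% in WT and 31.3% in N-LKO, and 42.1% and 39.0% unthinned, against 2.60% and 2.13% of hepatocyte-like cells, at endothelial-like median depths of 1173 and 1264 UMIs. Stellate-like cells had 336.5 and 361 CPM, which did not differ beyond counting error (log2 ratio 0.10, -0.09 to 0.29). Endothelial markers summed to 4160 CPM (WT) and 1976 CPM (N-LKO) of the same cells, and their part in these Timp3 levels was not tested. Among stellate-like cells without a Kupffer marker UMI, Timp3 was at 270 CPM in WT (285 cells) and 401 CPM in N-LKO (221 cells). T/NK-like cells went from 13 UMIs (8.35 CPM) to 78 UMIs (26.2 CPM, log2 ratio 1.60, 0.79 to 2.62), beside an endothelial source level of 19.7 and 32.7 CPM and a free RNA level of 7.57 and 17.8 CPM, and hepatocyte-like cells had 25.3 and 18.9 CPM (log2 ratio -0.42, -0.77 to -0.09).

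Loxl2, a lysyl oxidase that cross-links collagen, did not differ in stellate-like cells, with 82 UMIs in WT (49.1 CPM) and 52 UMIs in N-LKO (47.7 CPM, log2 ratio -0.04, -0.57 to 0.48). In endothelial-like cells it had 38 UMIs (16.0 CPM) and 77 UMIs (22.1 CPM, log2 ratio 0.46, -0.11 to 1.07). Other classes held few UMIs, with 26 and 7 in hepatocyte-like and 1 and 13 in Kupffer-like cells.

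Counted by class, 3 of 7 members tested in Kupffer-like cells were called higher (Mmp8, Mmp12 and Mmp14) and 0 lower, beside 4.93% of 12062 genes called higher and 5.51% called lower. The Mmp14 call was at the 2-fold limit, and its log2 ratio ran from 0.36 to 1.38 under the alternatives. In monocyte/macrophage-like cells 2 of 5 were called higher (Mmp8 and Mmp12) and 0 lower, beside 4.41% and 7.18% of 10064 genes. In stellate-like cells 2 of 8 were called higher (Mmp12 and Mmp13) and 0 lower, beside 6.09% and 6.35% of 10597 genes. Mmp13 had too few UMIs in stellate-like cells without a Kupffer marker UMI to tell whether its difference was present there. In endothelial-like and hepatocyte-like cells Mmp12 alone was called higher of 6 members tested in each, with 0 lower, beside 11.4% and 6.73% of 11885 genes and 6.20% and 3.79% of 13165 genes. In T/NK-like cells 4 of 6 were called higher (Mmp12, Mmp14, Timp2 and Timp3) and 0 lower, beside 10.0% and 6.80% of 11410 genes. Of these the Timp2 call was lost under the 3 alternatives given above, and that of Timp3 with the mixed clusters included (log2 ratio 0.18). The T/NK-like class held 1177 WT and 1946 N-LKO cells, but 1021 and 1192 with the members used in clustering, and 1021 and 1198 at resolution 1.0. Monocyte and macrophage markers summed to 740 CPM (WT) and 1867 CPM (N-LKO) of T/NK-like cells, and T markers to 1436 and 923 CPM. The part of macrophage transcripts in the T/NK-like calls was not tested. The median log2 ratio of the members tested was 1.00 in Kupffer-like cells, where that of all genes tested was -0.05, 1.14 against 0.07 in T/NK-like cells, 0.65 against 0.09 in endothelial-like cells and 0.19 against -0.10 in stellate-like cells.

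**Figure D4:**
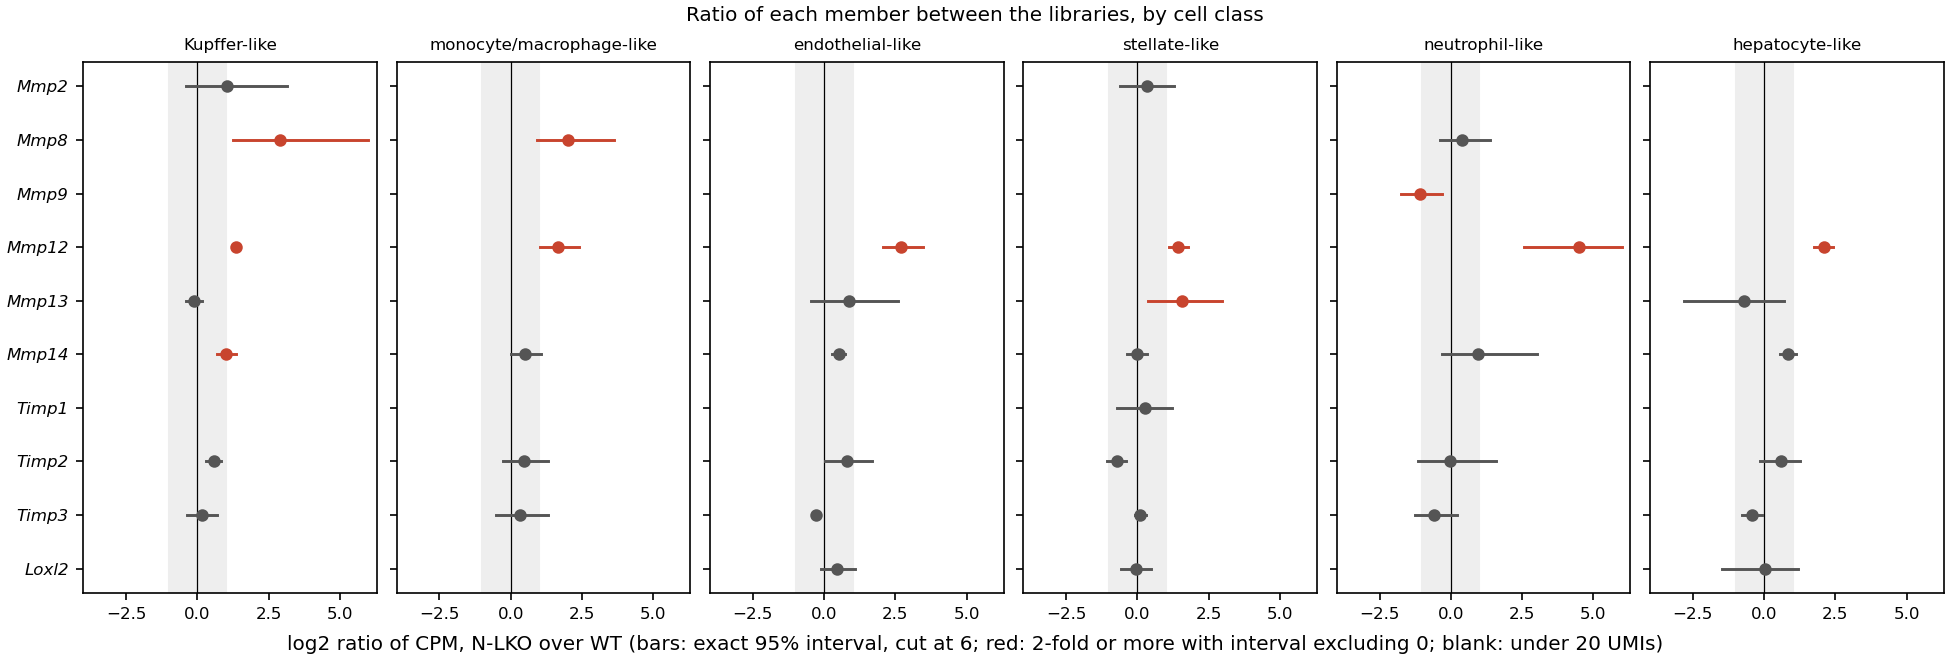
Log2 ratio of N-LKO over WT for each of the 10 genes in 6 cell classes, with exact 95% counting intervals drawn up to 6 and members under 20 UMIs left blank. Red marks ratios of at least 2-fold with an interval excluding 0, and the grey band spans ratios under 2-fold. Mmp12 lay to the right of the band in every class drawn, and Mmp9 in neutrophil-like cells lay to its left.

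Other genes of matrix turnover were read from 7 lists with 64 genes (other MMPs, other MMP inhibitors, other lysyl oxidases, ADAM and ADAMTS proteases, the plasminogen system, other matrix-degrading proteases, and partners or substrates of MMPs). In Kupffer-like cells, 33 of the 64 were tested, 8 were called higher and 1 lower, beside 4.93% and 5.51% of all genes tested. The largest ratios among the called genes were those of Lcn2, a partner that stabilizes MMP9 (4.84 and 66.1 CPM, log2 ratio 3.71), Ctsk and Htra1. The collagen-degrading cathepsin gene Ctsk had 3 and 45 UMIs (1.21 and 7.73 CPM, log2 ratio 2.47, 1.04 to 5.01). The secreted serine protease gene Htra1 had 3 and 43 UMIs (1.21 and 7.38 CPM, log2 ratio 2.40, 0.97 to 4.94). The lowest among the called genes were those of Adamdec1 (54.9 and 24.0 CPM, log2 ratio -1.19), the urokinase receptor gene Plaur (12.5 and 32.6 CPM, log2 ratio 1.36) and Adam8 (8.07 and 30.7 CPM, log2 ratio 1.90), whereas the median over the 33 tested was 0.45. Monocyte/macrophage-like cells had 3 called higher of 26 (Lcn2 at a log2 ratio of 3.32, Spp1 at 1.89 and Sparc at 1.11) and 0 lower, beside 4.41% and 7.18% of all genes tested.

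Stellate-like cells had 6 called higher and 2 lower of 38 tested, beside 6.09% and 6.35% of all genes tested. The highest of these 8 were Lcn2 (log2 ratio 4.37), the tissue plasminogen activator gene Plat (3.59 and 17.4 CPM, log2 ratio 2.20) and the osteopontin gene Spp1 (24.6 and 107 CPM, log2 ratio 2.12). The lowest of them were Adamdec1 (27 and 2 UMIs, log2 ratio -2.84), the aggrecan- and versican-cleaving Adamts1 (199.4 and 77.1 CPM, log2 ratio -1.36) and the procollagen-processing Adamts14 (10.8 and 23.9 CPM, log2 ratio 1.13). Endothelial-like cells had 14 called higher and 0 lower of 36, beside 11.4% and 6.73% of all genes tested. The called genes ran from Lcn2 (log2 ratio 3.75), Spp1 (2.97) and the elastin gene Eln (2.29) down to Ctss (1.23), Plg (1.12) and Lgals3 (1.08). Plg, the plasminogen gene, is a hepatocyte transcript, and the part of free RNA in its level there was not tested.

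In hepatocyte-like cells 5 of 36 were called higher and 3 lower, beside 6.20% and 3.79% of all genes tested, between libraries whose hepatocyte-like cells lay in different clusters. Lcn2 went from 14.98 to 445 CPM (log2 ratio 4.89), Spp1 from 23.2 to 465 CPM (4.32) and Lgals3 from 12.8 to 41.4 CPM (1.70). Reck, a membrane-anchored MMP inhibitor, went from 218 UMIs (12.96 CPM) to 4 UMIs (0.859 CPM, log2 ratio -3.75, -5.80 to -2.54), Spock1, a proteoglycan listed with the MMP inhibitors, from 49 UMIs to 1 UMI (log2 ratio -3.19, -9.09 to -1.22), and the protease inhibitor gene Serpine2 from 17.7 to 4.29 CPM (-2.01). T/NK-like cells had 9 called higher and 0 lower of 31, beside 10.0% and 6.80% of all genes tested. The called genes ran from Lcn2 (3.44), Spp1 (1.77) and Plaur (1.63) down to Ctss (1.20), Ctsb (1.13) and Fn1 (1.03). The part of macrophage transcripts in these T/NK-like ratios was not tested. Neutrophil-like cells had Spp1 alone called higher of 24 (1 and 124 UMIs, log2 ratio 3.39) and 0 lower, beside 4.02% and 6.08% of all genes tested. Lcn2 and Spp1 were called in nearly all of these classes, and the part of free RNA from hepatocyte-like cells in that was not tested.

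Patterns most like those of the members were sought over the 28 points given by 14 classes and 2 libraries, which share library, depth and free RNA, so that the correlations are descriptions. Mmp12 was most like Pla2g15 (Pearson's r = 0.88), Atp6v0d2 (0.88) and Flvcr1 (0.83), and Mmp13 most like Tnfrsf11a (0.86), Arhgap19 (0.84) and E230029C05Rik (0.84). Mmp8 was most like Trem1 (0.89), Chil3 (0.89) and Acod1 (0.87), and Mmp9 like Cstdc4 (0.77), S100a9 (0.75) and Ltf (0.74). Timp3 was most like Igfbp7 (0.96), Cavin2 (0.95) and Rapgef5 (0.94), Mmp14 like Dock1 (0.92), Lima1 (0.90) and Map4k3 (0.89), Timp2 like Plxdc2 (0.88), Sfxn3 (0.86) and Klf6 (0.86), and Loxl2 like Gm29683 (0.91), C1qtnf7 (0.87) and Gm13889 (0.85). Mmp2 and Timp1, with 42 and 41 UMIs in stellate-like cells, were too scarce for this.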

How the data were processed

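Single-cell 3′ RNA-Seq (10x Genomics v3 chemistry) of 1 WT and 1 N-LKO library was analysed. The deposited matrices hold raw UMI counts per gene and barcode, made by the authors with Cell Ranger (7.1.0 in the file headers). The submitters' processing notes name Cell Ranger, Seurat and mm9. The annotation, intron counting and use of strand are not given in the sources used here. Barcodes with at least 1000 UMIs, 400 genes and at most 30% mitochondrial UMIs passed (20158 WT and 22214 N-LKO). Simulated doublets scored by neighbors removed 1723 (8.55%) and 2364 (10.6%). Counts were clustered with scanpy 1.11.5 (2000 variable genes, 30 components, 20 neighbors, Leiden resolution 0.3, 23 clusters), leaving out members and pathway genes, and 20 clusters were named from 18 marker lists. UMIs were summed per class and library and given as CPM with exact Poisson intervals. Ratios add 0.5 UMI to each count and carry exact conditional 95% binomial intervals, and shares of cells carry Clopper-Pearson intervals. Code was tested on simulated data.

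The genes named were all 10 members in their main class and in the macrophage, stellate, endothelial, hepatocyte and neutrophil classes, the called pathway genes (all if 6 or fewer, otherwise the 3 highest and 3 lowest ratios), and the 3 most alike genes per member with at least 50 UMIs. T/NK-like values were added after they were seen. The members and lists were chosen with earlier results of these data known. Alternatives changed the UMI minimum, mitochondrial limit, doublets, resolution, clustering genes, free RNA, scaling, weighting and class rule.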

Additional observations from a re-analysis of the deposited data

Results flagged for a closer look

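Timp2 ran in opposite directions in different classes. Its log2 ratio of N-LKO over WT was 1.01 in T/NK-like cells and -0.73 in stellate-like cells, a difference of 1.73, with both counting intervals clear of 0. With 1 library per genotype the difference itself was not tested. The T/NK-like value turned negative under 3 other ways of clustering or filtering, given with the processing. Timp3 did the same between T/NK-like cells (log2 ratio 1.60) and hepatocyte-like cells (-0.42), a difference of 2.02, also not tested. The T/NK-like levels of Timp3 were 8.35 and 26.2 CPM, beside free RNA levels of 7.57 and 17.8 CPM.

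Barcodes below 1000 UMIs, which entered no class, also held the members. There the log2 ratio of N-LKO over WT was 3.35 for Mmp8 (29 and 253 UMIs), 3.13 for Timp1 (13 and 99 UMIs), 2.72 for Mmp12 (716 and 3983 UMIs) and 1.81 for Mmp9 (82 and 243 UMIs). It was 1.52 for Mmp13, 1.49 for Mmp14, 1.21 for Mmp2 and 1.21 for Loxl2. These barcodes numbered 74613 in WT and 59798 in N-LKO and hold small cells, fragments and free RNA together.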

How the results depend on the processing

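No paired analysis was possible because each genotype had 1 library, and leaving out a library leaves no comparison. Of 92 log2 ratios of the members in their main classes recomputed under alternatives, 77 stayed within the counting interval of the main value. Of the others, 12 moved outside it and 3 turned. Of 439 log2 ratios in other classes or over all kept cells, 381 stayed within it, 47 moved and 11 turned. A ratio counted as turned only where the interval of the main value excluded 0. Other changes of sign are therefore among those that stayed or moved. Log2 ratios of N-LKO over WT are given. Mmp12 in Kupffer-like cells (1.34) was -0.89 at resolution 1.0, where only 49 N-LKO cells kept the class name, and -0.75 within the Mmp12-rich cluster, an alternative added after seeing the data. It was 1.48 as a mean over cells and 0.86 with mixed and unnamed clusters counted in their highest-scoring class. Mmp13 in Kupffer-like cells (-0.12) was -2.48, -1.67 and -0.72 under the first, second and last of these, and Timp2 there (0.57) was -0.98 at resolution 1.0 and -0.10 with mixed clusters counted.

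A mitochondrial limit of 10% left 3932 WT and 2853 N-LKO cells, of which 421 and 56 were endothelial-like and 445 and 65 stellate-like. Under it Timp3 was 0.27 in endothelial-like and 1.18 in hepatocyte-like cells, Mmp14 1.38 in endothelial-like cells, Mmp2 1.30 and Loxl2 0.73 in stellate-like cells, and over all kept cells Mmp2 was -0.75, Mmp13 -0.13, Timp1 -0.47, Timp3 -0.76 and Loxl2 -1.02. Among cells without a Kupffer marker UMI, also added after seeing the data, Mmp2 was -0.83 and Timp2 -1.12 in stellate-like cells, and Mmp14 was 0.87 and Timp3 -0.15 in endothelial-like cells. Timp2 in T/NK-like cells (1.01) was -0.10 with a minimum of 500 UMIs, -0.29 at resolution 1.0 and -0.28 with the members used in clustering. Pathway genes called lower in stellate-like cells numbered 1 rather than 2 with at least 50 UMIs required, and 1 without cells holding a Kupffer marker UMI. Those called higher in neutrophil-like cells numbered 3 rather than 1 with UMIs scaled outside mitochondrial and hepatocyte marker genes, and 2 without cells holding a Kupffer marker UMI. The causes of these shifts were not tested. No stellate-like or monocyte/macrophage-like class was named with a minimum of 500 UMIs, nor a Kupffer-like, monocyte/macrophage-like, neutrophil-like or T/NK-like class at the limit of 10%, so those values could not be had. Depth limits Mmp2 and Timp1 most, at 42 and 41 UMIs in stellate-like cells.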

Other observations

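Mesothelial-like cells, the lining of the liver surface, were few (34 in WT and 77 in N-LKO), yet they held the highest level of Timp2 of any class, at 615 CPM in WT (32 UMIs, 421 to 868) and 769 CPM in N-LKO (92 UMIs, 620.1 to 943). The order of classes for Timp2 put them above stellate-like cells in both libraries, with intervals that did not overlap. Timp1 had 2 UMIs in WT and 14 UMIs in N-LKO mesothelial-like cells (117 CPM, 64.0 to 196), above the 16.5 CPM of N-LKO stellate-like cells. Mmp12 had 0 UMIs in the 34 WT cells and 59 UMIs in N-LKO (493 CPM). With a floor of 3 UMIs put in for WT the log2 ratio was 3.10, and the exact interval of the ratio began at 2.75. Of those 59 UMIs, 57 were in 5 cells, whereas the Kupffer marker content of the class would bring 141 CPM. Whether these few cells were joined to macrophages was not tested.

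Timp2 was also found in cholangiocyte-like cells, the lining of bile ducts, with 23 UMIs in WT (74.2 CPM) and 100 UMIs in N-LKO (111 CPM, log2 ratio 0.56, -0.08 to 1.30). Timp3 in the same cells had 44 and 138 UMIs (142 and 153 CPM, log2 ratio 0.10, -0.39 to 0.63), and Mmp14 had 15 and 76 UMIs (48.4 and 84.4 CPM, log2 ratio 0.76, -0.01 to 1.71). Mmp12 there was at 25.8 and 31.1 CPM, with no difference beyond counting error.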
